A study of Mus musculus with 9 samples.

Results

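Collagen VI and some of the other non-fibrillar collagens outside type IV were followed in NIH/3T3 cells. This is an established mouse embryonic fibroblast line of wild-type genotype. The 10 genes are Col6a1, Col6a2, Col6a3, Col7a1, Col8a1, Col12a1, Col14a1, Col15a1, Col16a1 and Col18a1, taken by gene symbol from a table of 56691 genes. Other genes of that class, Col9a3 and Col17a1 among them, are not members and are described separately below. Of these 10, 8 passed the filter on low counts that left 14151 genes for testing, and Col14a1 and Col15a1 did not. RNA was sequenced from 9 libraries in 3 groups of 3: cells without treatment (control), cells given UVA at 10 J/cm2 (UVA), and cells given the same UVA dose together with α-arbutin, a glucoside of hydroquinone (co-treated). The study asked whether α-arbutin protects against photodamage, with collagen synthesis among its interests. Not given in the sources used here are the α-arbutin dose, its timing relative to irradiation, the time of harvest and whether each library had a culture of its own. All libraries come from 1 cell line, and no group received α-arbutin without UVA.

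These collagens do not form the thick banded fibrils of collagens I and III, but bind to them, link them to other structures or build networks of their own. The products of Col6a1, Col6a2 and Col6a3 assemble into 1 triple-helical monomer, which joins end to end into beaded microfilaments around cells, and mutations in any of these genes cause muscle disease in humans. Collagens XII, XIV and XVI sit on fibril surfaces through interrupted helices, collagen VII forms the anchoring fibrils that hold epidermis to dermis, collagen VIII builds short-chain lattices, and collagens XV and XVIII are basement membrane proteoglycans whose C-terminal ends can be released as restin and endostatin.

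Every collagen chain repeats the triplet Gly-X-Y, and the length of its unbroken runs differs between these genes. The coding sequences below are the first 63 bases of the longest unbroken Gly-X-Y run of 4 members, read from GENCODE M21 transcripts (GRCm38), 5′ to 3′ on the coding strand, with each glycine codon in capitals. They are shown for the 3 collagen VI chains and for Col12a1, the genes that the results turn on.
Col6a1, codons 256 to 276: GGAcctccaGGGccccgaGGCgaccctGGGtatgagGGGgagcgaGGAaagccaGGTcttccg
Col6a2, codons 271 to 291: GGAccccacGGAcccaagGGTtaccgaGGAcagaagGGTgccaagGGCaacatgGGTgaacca
Col6a3, codons 1558 to 1578: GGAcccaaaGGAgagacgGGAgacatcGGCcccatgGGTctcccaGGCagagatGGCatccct
Col12a1, codons 2805 to 2825: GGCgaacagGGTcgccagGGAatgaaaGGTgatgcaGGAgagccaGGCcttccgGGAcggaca

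The longest run held 87 repeats in Col6a1 and 87 in Col6a2, but 45 in Col6a3 and 32 in Col12a1. Runs of 5 or more repeats made up 32.1% of the 1025 codons of Col6a1 and 31.9% of the 1034 codons of Col6a2. They made up 12.4% of the 2677 codons of Col6a3 and 8.19% of the 3065 codons of Col12a1, whose remaining sequence is mostly globular domains. In Col16a1 they took 62.9% of 1580 codons, broken into 21 runs, and in Col8a1 61.0% of 744 codons. Arg-Gly-Asp, the tripeptide that many integrins recognise, occurred inside the runs 3 times in Col6a1, 5 times in Col6a2 and 5 times in Col6a3. Open reading frames were taken as the longest run from ATG to stop among each gene's coding transcripts.

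The promoters of the 3 collagen VI genes are printed because these genes fell together after UVA. Each runs from 250 bases before to 50 bases after an annotated start, 5′ to 3′ in the direction of transcription, from RefSeq on GRCm38.p6, and capitals mark motif matches named after the sequences. Promoter entries were found for 8 of the 10 members. Col6a2 has a second entry, from a start further upstream, that is not printed. All 3 genes lie on the minus strand.
Col6a1, chr10:76725995-76726294: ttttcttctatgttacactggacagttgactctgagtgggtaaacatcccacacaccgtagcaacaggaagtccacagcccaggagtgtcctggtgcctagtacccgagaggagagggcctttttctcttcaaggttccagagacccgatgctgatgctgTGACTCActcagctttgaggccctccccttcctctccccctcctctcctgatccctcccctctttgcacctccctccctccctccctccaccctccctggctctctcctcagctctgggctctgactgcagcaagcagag
Col6a2, chr10:76623355-76623654: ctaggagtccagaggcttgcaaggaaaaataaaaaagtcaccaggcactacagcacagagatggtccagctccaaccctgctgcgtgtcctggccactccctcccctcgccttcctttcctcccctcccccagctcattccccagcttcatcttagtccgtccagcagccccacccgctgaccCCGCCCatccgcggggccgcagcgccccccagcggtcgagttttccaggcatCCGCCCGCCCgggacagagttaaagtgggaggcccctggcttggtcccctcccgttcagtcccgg
Col6a3, chr1:90843922-90844221: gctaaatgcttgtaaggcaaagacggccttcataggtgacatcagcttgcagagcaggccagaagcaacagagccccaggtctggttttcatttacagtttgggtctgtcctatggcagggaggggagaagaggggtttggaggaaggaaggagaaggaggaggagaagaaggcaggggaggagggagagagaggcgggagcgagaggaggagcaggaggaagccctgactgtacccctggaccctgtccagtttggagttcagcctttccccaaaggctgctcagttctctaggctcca

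Motifs were searched on both strands: the TATA box (TATAAA), the CCAAT box (CCAAT), the GC box (GGGCGG), the AP-1 site (TGANTCA), the antioxidant response element core (TGAC, any 3 bases, GC) and the CArG box. With the first transcribed base counted as 0, the Col6a1 promoter holds an AP-1 match from -90 to -84, a motif present in 7.81% of 32851 RefSeq promoters of the same length. The printed Col6a2 entry holds 3 GC boxes, from -67 to -62, -15 to -10 and -11 to -6, and 35.7% of all promoters hold at least 1. All 3 lie on the strand opposite to the printed one. It also holds an antioxidant response element core from -72 to -64, which overlaps the most distant GC box and is not set in capitals, and 12.4% of all promoters hold this core. The other Col6a2 entry holds 1 GC box, from -175 to -170, and no such core. The Col6a3 promoter holds none of the 6 motifs. No TATA box was found in the promoters of these 3 genes, against 13.6% of all promoters with one. These matches describe letters in the windows only.

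Total counts ran from 16.3 to 20.86 (in units of 1e6) per library, with 21026 to 21815 genes above 0 and 3.519 to 4.011% of counts on mitochondrially encoded genes. Levels are given as TMM-scaled counts per 1e6 counts (CPM) within a gene, and as FPKM, which divides by exonic length, between genes. Fold changes, standard errors and adjusted p-values come from edgeR's quasi-likelihood test on all 9 libraries, with Benjamini-Hochberg adjustment over 14151 genes and a call at an adjusted p below 0.05. Markers of endothelium, epithelium, muscle, immune cells and nerve sheath each summed to 0.870 to 7.40 CPM over all libraries, with Cldn5, Epcam, Krt5, Krt19, Myod1, Pax7, Cd3e and Sox10 at 0 in all 9 libraries.

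In control cells the order of levels per length was Col6a1, Col8a1, Col6a3, Col16a1, Col6a2, Col12a1, Col7a1 and Col18a1. Col6a1 stood at 54.8 ± 1.45 FPKM (SD, n = 3), Col8a1 at 36.2 FPKM, Col6a3 at 35.9 ± 0.880 FPKM and Col16a1 at 25.5 FPKM. Col8a1 and Col6a3 overlapped between libraries, at 34.77 to 37.14 FPKM and 34.98 to 36.74 FPKM, while all other neighbours in this order were apart. Further down came Col6a2 at 11.3 FPKM, Col12a1 at 3.50 FPKM, Col7a1 at 1.19 FPKM and Col18a1 at 0.460 FPKM. The length used matters most for 2 of these genes. The exonic size in the table is 1.789 times the longest coding transcript of Col6a2 and 1.533 times that of Col8a1. For the other tested members it runs from 1.068 times for Col6a1 to 1.323 times for Col12a1. Divided by the longest coding transcript instead, the control levels were 58.5 ± 1.55 for Col6a1, 55.6 ± 1.97 for Col8a1, 42.4 ± 1.04 for Col6a3, 33.0 ± 1.01 for Col16a1 and 20.2 ± 1.24 for Col6a2.

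Transcripts of all 3 collagen VI chains, collagen XII and collagen XVIII were called lower after UVA, and no member was called higher. The call of Col18a1 rested on few counts and was lost in some alternatives, as given below. In UVA against control, 5 of the 8 tested members were called lower and 0 higher, while 14.6% of all tested genes were called lower and 14.7% higher. Groups did not overlap for 6 of the 8 tested members, against 42.0% of all tested genes. The median log2 fold change of the 8 was -0.40, against 0.0029 over all tested genes. Fibroblast markers moved as well: of 10 listed, 8 were tested, 5 were called lower and 1 higher, with a median log2 fold change of -0.26. The 5 lower markers were Thy1 (-1.17 ± 0.09), Pdgfra (-0.72 ± 0.05), Pdgfrb (-0.55 ± 0.06), Twist2 (-0.26 ± 0.07) and Prrx1 (-0.25 ± 0.05), and the higher one was Vim (0.40 ± 0.04). The list summed to 4493 to 4536 CPM in control libraries, to 4971 to 5273 after UVA and to 4793 to 4950 after co-treatment, most of it Vim, at 2717 CPM in control and 3585 CPM in UVA. None of the 10 was at 0 in all 9 libraries. In these bulk libraries fewer cells of a type and less RNA per cell cannot be told apart. Of the 6 adipocyte markers, 2 were tested and 1 was called lower: their sum was 31.5 to 33.5 CPM in control libraries, 14.2 to 17.2 after UVA and 15.8 to 19.0 after co-treatment. Most of this was lipoprotein lipase (Lpl, 30.8 CPM in control and 14.3 in UVA), and the part of either marker list in the members' results was not tested.

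Col6a1, the chain that with Col6a2 forms the core of the collagen VI monomer, was at 234, 235 and 247 CPM in the control libraries and at 169, 172 and 183 CPM in the UVA libraries. All UVA libraries lay below every control library. The log2 fold change was -0.45 ± 0.04 (95% interval -0.54 to -0.36, adjusted p = 2.785e-09), a fold of 0.733. Col6a2 was at 87.3, 98.7 and 94.8 CPM in control and at 52.5, 53.0 and 52.1 CPM in UVA libraries. The UVA libraries lay close together, far below the control range. Col6a2 thus changed by -0.83 ± 0.06 in log2 (95% interval -0.95 to -0.72, adjusted p = 1.65e-12), a fold of 0.561. Col6a3, which encodes the longest chain with the many von Willebrand factor A domains and the cleaved tail, was at 415, 436 and 428 CPM in control and 331, 326 and 340 CPM in UVA libraries. Here too the groups were apart, by less than for Col6a2. Col6a3 changed by -0.36 ± 0.04 in log2 (95% interval -0.44 to -0.28, adjusted p = 1.646e-08), a fold of 0.778.

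Among the fibril surface collagens, Col12a1 fell most and Col16a1 was not called. Col12a1 encodes a long collagen that bridges fibrils under mechanical load. It was at 58.4, 48.1 and 52.8 CPM in control and at 21.4, 16.4 and 15.1 CPM in UVA libraries. The highest UVA library was less than 0.5 of the lowest control library. At -1.59 ± 0.11 in log2 (95% interval -1.81 to -1.37, adjusted p = 3.436e-12), a fold of 0.332, its change was the largest among the 8 tested members. Col16a1, which encodes a chain found at fibrils and near basement membranes, was at 165, 175 and 173 CPM in control and 156, 162 and 165 CPM in UVA libraries. The nearest pair of libraries was barely separated, at 164.998 CPM in control replicate 1 and 164.641 CPM in UVA replicate 3. The difference of -0.09 ± 0.04 on the log2 scale (95% interval -0.18 to -0.0004) had an unadjusted p of 0.04905 and an adjusted p of 0.127. Col14a1, the closest relative of Col12a1, had 8, 4 and 3 counts in control libraries, 5, 8 and 5 after UVA and 4, 1 and 0 after co-treatment. The co-treated libraries lay below the UVA libraries without overlap, at 8 counts or fewer in each, and the gene was not tested.

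Col7a1 and Col8a1 were not called, with different precision. Col7a1, the anchoring fibril collagen, was at 12.1, 12.4 and 12.0 CPM in control and 12.4, 10.4 and 13.3 CPM in UVA libraries. The UVA libraries spread to both sides of the control libraries. In log2 the difference was -0.0063 ± 0.12 (95% interval -0.26 to 0.24, adjusted p = 0.976). Col8a1, a short-chain network collagen made by vascular and mesenchymal cells, was at 270, 289 and 288 CPM in control and 285, 280 and 235 CPM in UVA libraries. UVA replicate 3 stood below the other libraries, and the groups overlapped. The log2 fold change was -0.08 ± 0.06 (95% interval -0.20 to 0.03, adjusted p = 0.299).

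Of the endostatin family, Col18a1 was low and fell, and Col15a1 was hardly counted. Col18a1 was at 2.49, 3.31 and 3.87 CPM in control and 2.10, 1.91 and 1.60 CPM in UVA libraries, from 43, 59 and 81 counts in control and 38, 31 and 32 counts in UVA. The groups did not overlap, but the control libraries were spread widely. In log2 it changed by -0.80 ± 0.25 (95% interval -1.31 to -0.29, adjusted p = 0.0157). The call was lost without control replicate 3 (-0.64, adjusted p = 0.117) and without UVA replicate 3 (-0.69, adjusted p = 0.0712). On the log2(FPKM + 1) scale, which shrinks changes of low genes, limma gave -0.20. Col18a1 shares 8825 bases with Slc19a1 on the opposite strand, and use of strand in the counting is not given in the sources used here. Slc19a1, a folate carrier, stood at 0.11 ± 0.10 (adjusted p = 0.448). Col15a1 had 1, 0 and 1 counts in control libraries, 0, 1 and 0 after UVA and 1, 0 and 3 after co-treatment.

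**Figure D1:**
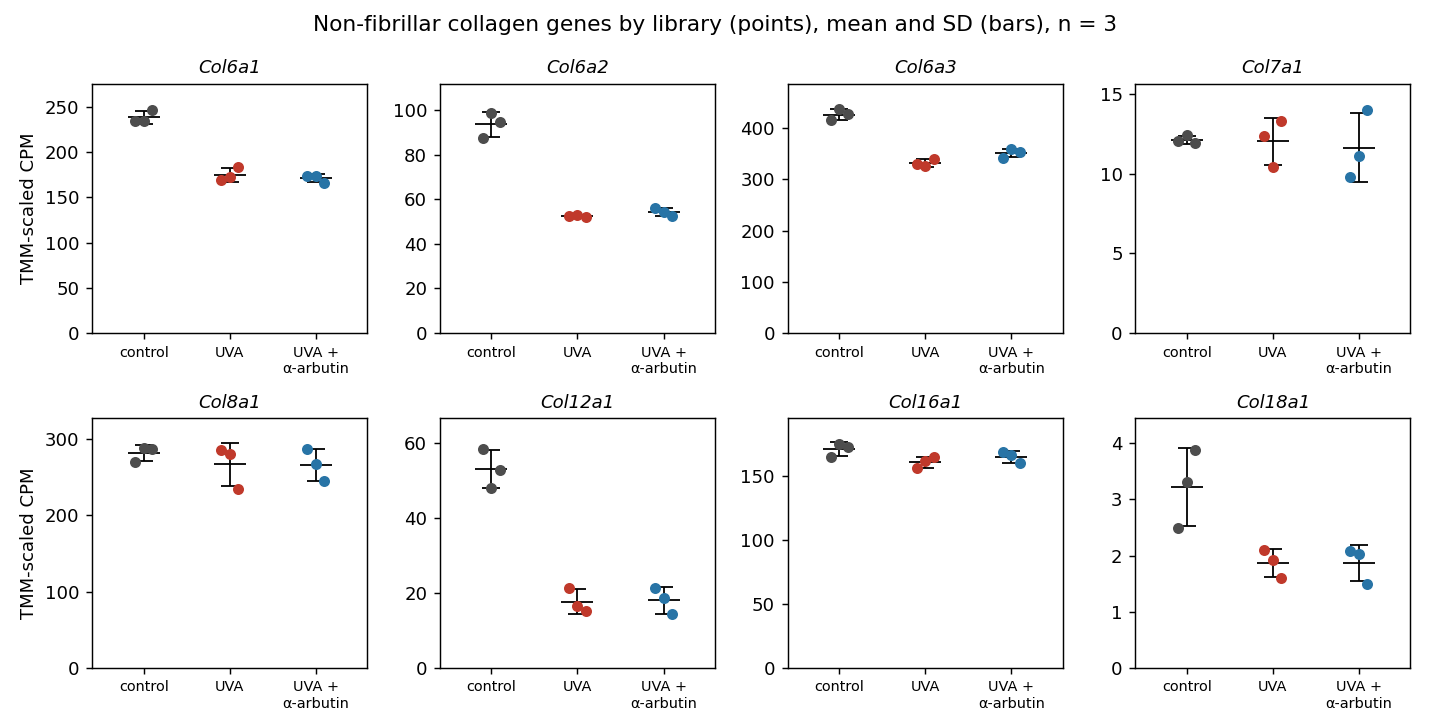
Level of each of the 8 tested collagen genes (vertical axes, TMM-scaled CPM) in control, UVA and co-treated libraries; points are libraries and bars the mean and SD of 3. The UVA and co-treated points of Col6a1, Col6a2, Col6a3, Col12a1 and Col18a1 lie below all control points, while those of Col7a1 and Col8a1 overlap them.

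Col6a2, Col6a1 and Col18a1 are neighbours in the genome. In the mm39 coordinates of the table, Col6a2 (ENSMUSG00000020241) lies at chr10:76431596-76459464, Col6a1 (ENSMUSG00000001119) at chr10:76544626-76562002 and Col18a1 (ENSMUSG00000001435) at chr10:76888012-77002382, all on the minus strand. Between the ends of Col6a2 and Col18a1 lie 5 tested genes, and the other 2 are Pcbp3 and Slc19a1. Pcbp3, an RNA-binding protein gene, had a fold change of -0.30 ± 0.07 in log2 (adjusted p = 0.00126), and Slc19a1 was not called. Col6a3 (ENSMUSG00000048126) lies apart on chromosome 1 at chr1:90693645-90771693 on the minus strand, and Col12a1 (ENSMUSG00000032332) at chr9:79506273-79626113 on the minus strand. Col7a1 (ENSMUSG00000025650) is at chr9:108782654-108813943 (plus), Col8a1 (ENSMUSG00000068196) at chr16:57444621-57575100 (minus) and Col16a1 (ENSMUSG00000040690) at chr4:129941633-129993076 (plus). Col14a1 (ENSMUSG00000022371) is at chr15:55171146-55384199 and Col15a1 (ENSMUSG00000028339) at chr4:47208161-47313167, both on the plus strand.

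Because the collagen VI chains join into 1 molecule, their ratios were compared within each library. Col6a2 relative to Col6a1, per length, was 0.196, 0.221 and 0.202 in control and 0.163, 0.162 and 0.149 in UVA libraries. In co-treated libraries it was 0.169, 0.165 and 0.167. Every UVA ratio was below every control ratio, and every co-treated ratio was above every UVA ratio and below every control ratio. The means were 0.206 ± 0.0131, 0.158 ± 0.00755 and 0.167 ± 0.00225 (SD, n = 3). Their size depends on the exonic lengths, which are 1.789 times the longest coding transcript for Col6a2 and 1.068 times for Col6a1. The order of the groups does not depend on the lengths. The exact two-sided permutation test gave p = 0.1 for each of these 3 differences, the smallest that 3 against 3 libraries allow, and 0.129 after Benjamini-Hochberg adjustment over 9 comparisons.

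Col6a3 relative to Col6a1 averaged 0.655 ± 0.0234 in control libraries, 0.695 ± 0.0187 after UVA and 0.752 ± 0.0309 after co-treatment. Control and UVA overlapped (exact permutation p = 0.2, adjusted 0.225). The co-treated ratios lay above both other groups without overlap (exact permutation p = 0.1 each, adjusted 0.129). Col6a1 relative to Col1a1, the main chain of fibrillar collagen I, averaged 0.374 ± 0.00996 in control libraries, 0.910 ± 0.169 after UVA and 0.868 ± 0.112 after co-treatment. Both irradiated groups lay above control without overlap (exact permutation p = 0.1 each, adjusted 0.129) and overlapped with each other (exact permutation p = 0.7). Col6a1 fell, but Col1a1 fell by more, at -1.71 ± 0.07 in log2 (adjusted p = 1.921e-16).

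**Figure D2:**
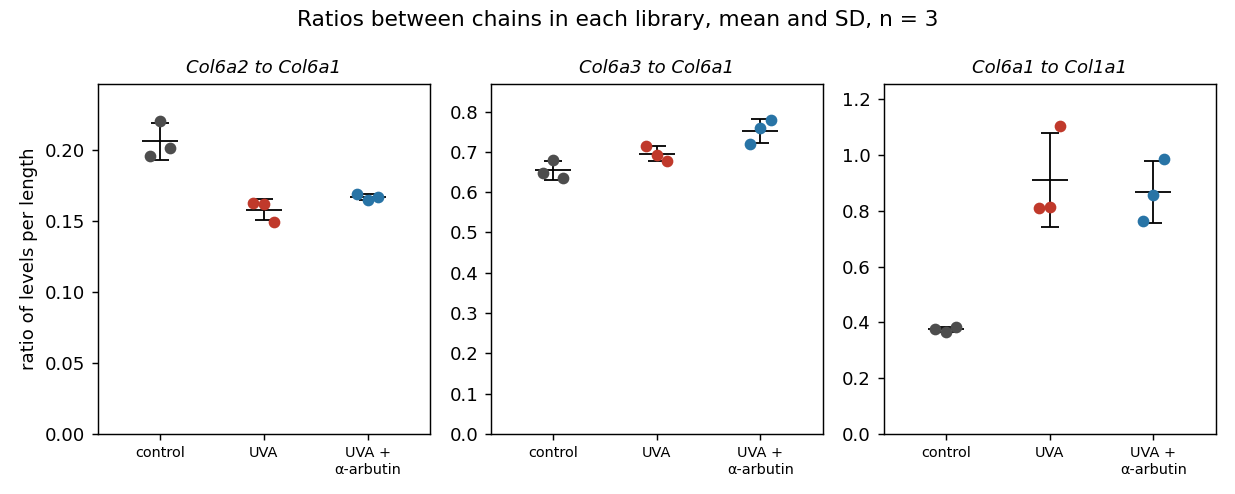
Ratios of levels per length between collagen chains (vertical axes, no unit) in control, UVA and co-treated libraries; points are libraries and bars the mean and SD of 3. The Col6a2 to Col6a1 ratio is highest in control (0.206) and lowest in UVA (0.158), and the Col6a1 to Col1a1 ratio rises from 0.374 to 0.910.

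The makeup of the collagen transcripts moved toward the non-fibrillar chains. The 3 collagen VI chains held 12.0% ± 0.0706 of the summed level per length of all collagen genes in control libraries, 14.4% ± 0.993 after UVA and 14.2% ± 0.522 after co-treatment (SD, n = 3). The other 7 members together held 7.91% ± 0.0935, 11.7% ± 0.190 and 11.6% ± 0.127. Both shares were higher in every irradiated library than in any control library, although no member was called higher. The summed level of the collagen VI chains was 101.9 FPKM in control and 73.6 FPKM in UVA, that of the other 7 members 66.9 and 60.2 FPKM, and that of the fibrillar collagens 524 and 203 FPKM. The fibrillar share was 61.9% ± 0.460 in control and 39.6% ± 3.07 in UVA libraries, and Col4a1 with Col4a2, the main basement membrane chains, went from 12.4% to 25.4%. The size of these shares depends on the exonic lengths used, and shares of raw counts are given at the end. The shares are descriptions and were not tested.

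**Figure D3:**
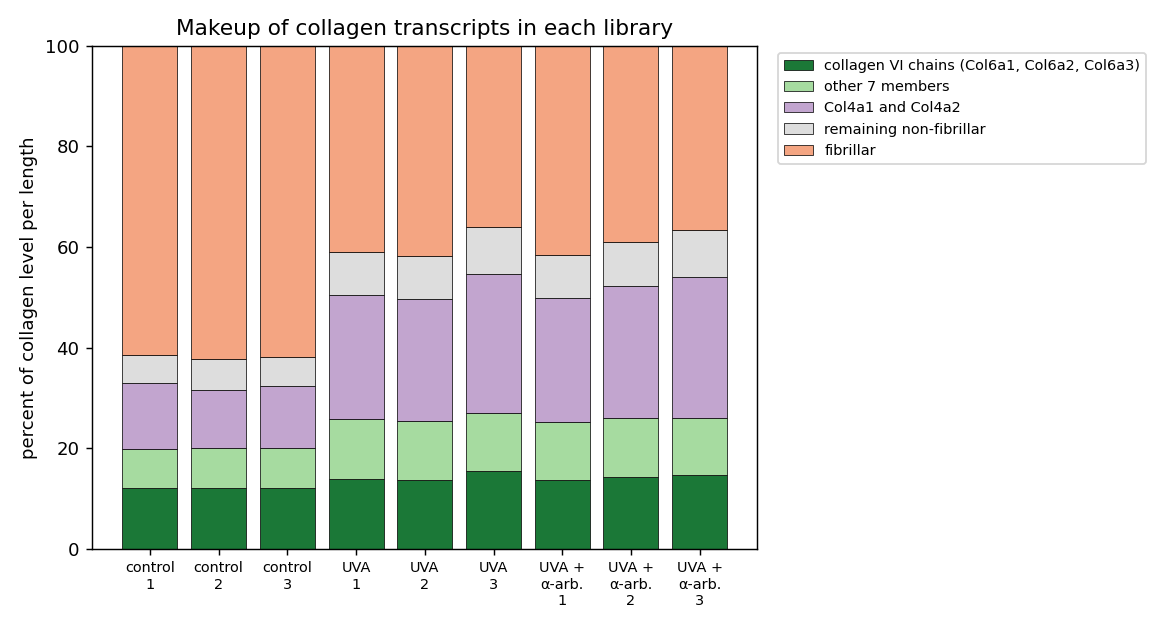
Percent of the summed level per length of all collagen genes (vertical axis) held by 5 classes in each of the 9 libraries (bars; α-arb. stands for α-arbutin, numbers are replicates). The bands of the collagen VI chains and of the other 7 members are wider in the 6 irradiated libraries than in the 3 control libraries, and the fibrillar band is narrower.

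The other collagens are given by class for UVA against control, where 14.6% of all tested genes were called lower and 14.7% higher. The same shares stand behind the counts of the partner lists that follow. Of 11 fibrillar collagens, 8 were tested, 6 were called lower and 0 higher, with a median log2 fold change of -1.24. Col1a2 changed by -1.19 ± 0.07 and Col3a1 by -1.39 ± 0.05 on the log2 scale. Of 23 other non-fibrillar collagens outside the 10 members, 8 were tested, 4 were called higher and 2 lower, with a median of 0.22. The lower genes were the basement membrane chains Col4a5 (-0.15 ± 0.04) and Col4a6 (-0.16 ± 0.05). The higher genes were Col4a1 (0.44 ± 0.04), Col4a2 (0.22 ± 0.04), Col9a3 (1.29 ± 0.30) and Col17a1 (1.94 ± 0.20). Col9a3 encodes a cartilage collagen that also sits on fibrils, and it was low, at 0.986 CPM in control and 2.44 CPM in UVA. Col17a1, a transmembrane collagen of hemidesmosomes, was at 2.36 ± 0.347 CPM in control and 9.05 ± 2.80 CPM in UVA libraries.

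Receptors and binding partners of collagen VI moved in both directions. Of 18 listed genes, 14 were tested, 6 were called lower and 4 higher, with a median log2 fold change of -0.06. The lower genes included Matn2, a matrilin that bridges matrix filaments (-0.94 ± 0.06), Bgn, a small proteoglycan that binds collagen VI (-0.65 ± 0.04), Fn1, fibronectin (-0.61 ± 0.04), and Ddr2, a collagen receptor kinase (-0.58 ± 0.05). The 4 higher genes were Cspg4, Antxr1, Itga3 and Itga10. Cspg4, the NG2 proteoglycan, rose by 0.43 ± 0.07 (adjusted p = 4.279e-05) and the receptor Antxr1 by 0.22 ± 0.06 (adjusted p = 0.0044). Itga3 and Itga10, integrin chains, rose by 0.17 ± 0.04 and 0.85 ± 0.31 (adjusted p = 0.00184 and 0.0414). Itga10 was low, at 1.14 CPM in control and 2.05 CPM in UVA. Antxr2, a receptor for collagen VI uptake, stood at -0.10 ± 0.05 (adjusted p = 0.146). Cspg4, Antxr1, Antxr2, Itga3 and Itga10 were named after their values were seen.

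Partners of the fibril surface collagens XII, XIV and XVI were mostly lower. Of 9 listed genes, 6 were tested, 4 were called lower and 1 higher, with a median log2 fold change of -0.91. Fbn1, the microfibril protein fibrillin, changed by -1.42 ± 0.07, Thbs1, thrombospondin, by -1.75 ± 0.13, and Tnc, tenascin C, by -0.39 ± 0.04. Tnxb, the tenascin that binds collagen XII and XIV and fibrils, rose by 0.66 ± 0.11. Of 9 anchoring partners of collagen VII, 6 were tested, 2 were called higher and 1 lower. Besides Col17a1 these were Itga6, an integrin chain of hemidesmosomes (0.29 ± 0.04), and Dst, a linker of the cytoskeleton (-0.19 ± 0.04). Itgb4, the integrin chain paired with Itga6 in hemidesmosomes, had a log2 fold change of 0.58 and was not called (adjusted p = 0.0911).

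Of 13 listed proteases that release endostatin or process the collagen VI tail, 12 were in the table, 7 were tested, 4 were called higher and 2 lower. Ctsl and Ctsb, lysosomal cathepsins that can release endostatin, rose by 0.34 ± 0.04 and 0.28 ± 0.04 on the log2 scale. Mmp2, a gelatinase, changed by -0.44 ± 0.04, and Mmp14, its membrane-bound activator, by -0.23 ± 0.04. Of 16 genes of the TGF-beta pathway, which drives collagen transcription in fibroblasts, all 16 were tested, 5 were called higher and 6 lower, with a median of -0.10. The receptors Tgfbr2 and Tgfbr3 changed by -0.72 ± 0.06 and -0.48 ± 0.04, while the receptor Tgfbr1 was higher by 0.37 ± 0.07 and the inhibitor Smad7 by 0.53 ± 0.09.

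Log2 CPM over the 9 libraries was compared with the mean of Col6a1, Col6a2 and Col6a3. Collagen genes and genes without a symbol were left out, so other collagens could not appear. Among the 13953 genes left, the most alike were Fblim1 (Pearson r = 0.9952), Adamts2 (0.9945), Fam114a1 (0.9926), Dennd5a (0.9901) and Pfkl (0.9896). Adamts2 encodes the proteinase that trims the N-terminal end of procollagens, and Fblim1 a filamin-binding adaptor of cell adhesions. Their sizes of change differed: Adamts2 had a log2 fold change of -1.93 and Dennd5a of -0.17. The 9 libraries share the step from control to irradiated cells, and 738 of 13953 genes reached r above 0.9.

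Addition of α-arbutin to UVA changed no member past the threshold. In co-treated against UVA libraries, 0 of the 8 tested members were called by edgeR, and 0.0353% of all tested genes (5 genes) were called in either direction. Over all genes, 957 had an unadjusted p below 0.05, and DESeq2 called 10. Groups did not overlap for 1 of the 8 tested members, against 10.8% of all tested genes. The 0 members called held in all of the alternatives run.

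Col6a3 was that 1 member, at 342, 359 and 353 CPM in co-treated against 331, 326 and 340 CPM in UVA libraries. All co-treated libraries were higher, by a small margin. The log2 fold change was 0.08 ± 0.04 (95% interval 0.0036 to 0.16, unadjusted p = 0.0411, adjusted p = 0.722). Col6a1 was at 174, 173 and 166 CPM in co-treated libraries (log2 fold change -0.03, 95% interval -0.12 to 0.06, adjusted p = 0.927). Col6a2 was at 56.1, 54.3 and 52.6 CPM (0.05, 95% interval -0.07 to 0.17, adjusted p = 0.909). Both overlapped the UVA libraries, and both intervals exclude a return to the control level, which would need 0.45 and 0.83.

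Col12a1, the member lowest relative to control, was at 21.3, 18.5 and 14.2 CPM in co-treated libraries. They covered the same range as the UVA libraries (log2 fold change 0.03, 95% interval -0.22 to 0.28, adjusted p = 0.978). Col16a1 was at 169, 166 and 160 CPM (0.04, 95% interval -0.05 to 0.13, adjusted p = 0.909). Col8a1 was at 287, 267 and 245 CPM (-0.0016, 95% interval -0.12 to 0.12, adjusted p = 0.996). Col16a1 and Col8a1 each overlapped UVA. Col7a1 was at 9.81, 11.1 and 14.0 CPM (-0.05, 95% interval -0.30 to 0.20, adjusted p = 0.962). Col18a1 was at 2.07, 2.03 and 1.49 CPM (-0.0057, 95% interval -0.56 to 0.55, adjusted p = 0.997), the widest interval of the 8. Among all the partner lists above, 0 genes were called in this comparison by edgeR.

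**Figure D4:**
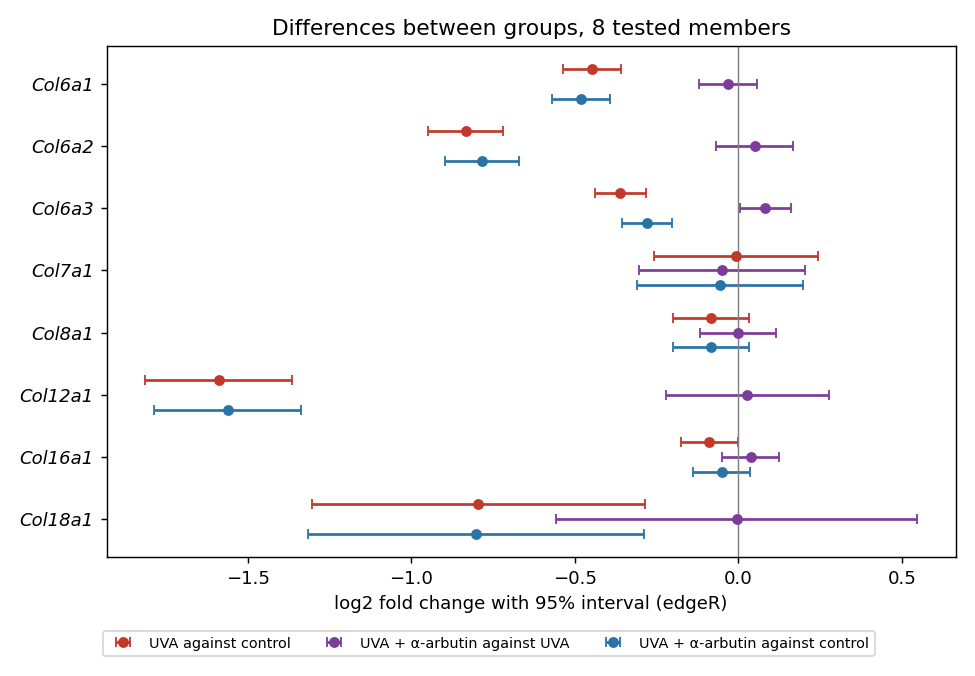
Log2 fold change (horizontal axis) with its 95% interval from edgeR for the 8 tested collagen genes in 3 comparisons. In UVA and co-treated against control the intervals of Col6a1, Col6a2, Col6a3, Col12a1 and Col18a1 lie below 0 with a call, and in co-treated against UVA no member was called although the Col6a3 interval starts at 0.0036.

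Co-treated cells against control cells gave the same number of lower members. This comparison shares its control libraries with UVA against control, so the values are set side by side and are not independent. Of the 8 tested members 5 were called lower and 0 higher, and 12.9% of all tested genes were called lower and 13.0% higher. Groups did not overlap for 5 of the 8 tested members, against 39.7% of all tested genes. The log2 fold change was -0.48 ± 0.04 for Col6a1 (adjusted p = 9.028e-10), -0.78 ± 0.06 for Col6a2 (adjusted p = 6.984e-12) and -0.28 ± 0.04 for Col6a3 (adjusted p = 1.655e-06). It was -1.56 ± 0.11 for Col12a1 (adjusted p = 6.482e-12), with a fold of 0.339. Col18a1 stood at -0.80 ± 0.25 (adjusted p = 0.0176), a call lost without control replicate 2 (adjusted p = 0.0521), control replicate 3 (adjusted p = 0.128) or co-treated replicate 3 (adjusted p = 0.0906). Col7a1 (-0.06, adjusted p = 0.787), Col8a1 (-0.08, adjusted p = 0.304) and Col16a1 (-0.05, adjusted p = 0.42) were not called.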

How the data were processed

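RNA of NIH/3T3 cells was sequenced in 9 libraries, grouped by sample title and treatment label. UVA libraries have MOCK in their titles but the UVA dose in the treatment label, which was followed. Table columns starting with NC were read as control by elimination, since the other columns name the other titles. Per the file headers, the authors' deposited table holds raw counts and FPKM per gene for each library, beside gene coordinates and exonic length. Build mm39, HTSeq 0.6.1, HISAT2 2.2.1, cutadapt 1.9.1 and bcl2fastq 2.20.0.422 are listed, without roles, in the submitters' processing notes. The deposited FPKM matched count over length and library total within 0.01 for all 510219 values. Genes without a symbol (2639) held 0.112 to 0.118% of counts.

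Counts were tested with edgeR 4.0.16 in R 4.3.3 (filterByExpr, TMM, quasi-likelihood F-test, all 9 libraries in 1 fit on group). The same fit was also run on simulated counts, with means and dispersion taken from these data. TMM factors ran from 0.9919 to 1.007. limma 3.58.1 on log2 of the deposited FPKM plus 1 or 0.1, DESeq2 1.42.0, other scalings, no filter, a replicate block and leaving out each library were the alternatives. Chain ratios used exact permutation tests. P-values measure only the spread between these libraries, which may be technical. The members and lists were chosen with earlier results of these data known. Named genes are all members and up to 4 tested genes of each list with the smallest p in UVA against control. Col1a1, Col1a2 and Col3a1 are named too, as are the 5 genes most correlated with collagen VI. Those 5 were sought only among genes with a symbol outside the collagen family. Genes named outside this rule were chosen after their values were seen. They are Antxr1, Antxr2, Cspg4, Itga3, Itga10, Col4a5, Col4a6, Tgfbr1, Twist2 and Prrx1, and Pcbp3 and Slc19a1 as neighbours. The markers named as being at 0 in all libraries are outside it too. Table coordinates are mm39, sequences GRCm38, and no position was converted. Python 3.11.15 drew the figures.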

Additional observations from a re-analysis of the deposited data

How the results depend on the processing

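The number of members called did not move by more than 1.5 times in any alternative run, and no member reversed direction with a call. Of the member fold changes recomputed, 133 in UVA against control, 136 in co-treated against UVA and 132 in co-treated against control stayed on the same side of the threshold. The exceptions, 3 in the first comparison and 4 in the last, were all of Col18a1. With limma on log2(FPKM + 0.1) its adjusted p was 0.0511 in UVA against control and 0.0545 in co-treated against control. On log2(FPKM + 1), which understates changes of low genes, the Col18a1 fold change moved from -0.80 to -0.20 in both comparisons (adjusted p = 0.0429 and 0.047 with limma). The calls lost without single libraries are given with its values above. Leaving out each library in turn gave log2 fold changes in UVA against control from -1.754 to -1.484 for Col12a1, -0.8816 to -0.796 for Col6a2, -0.4843 to -0.4239 for Col6a1, -0.3805 to -0.3455 for Col6a3 and -0.9467 to -0.6376 for Col18a1.

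The 5 genes called over all genes in co-treated against UVA became 10 with the DESeq2 test, 29 with no filter on low counts and 19 with the replicate block. They became 0 with limma on log2(FPKM + 1), where 935 genes had an unadjusted p below 0.05, and 0 on log2(FPKM + 0.1), where 941 did. Leaving out each library in turn gave 1 to 22, with 8 without UVA replicate 2, 22 without UVA replicate 3, 1 without co-treated replicate 2 and 2 without co-treated replicate 3. The cause was not tested. The replicate block called 4359 genes in UVA against control and 3931 in co-treated against control. The deviations of same-numbered libraries correlated at -0.00579 to 0.0969, not above 0.1 for every pair, so the numbers were not taken as pairs. Between UVA and co-treated libraries the same-numbered pairs gave 0.0712, 0.0429 and 0.0969, the others -0.0969 to 0.0279, and each library correlated best with its own number, a hint from the data and not from the design.

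With raw counts in place of levels per length, the shares of collagen in control, UVA and co-treated libraries were 10.17, 12.96 and 13.02% for collagen VI, 7.002, 10.62 and 10.44% for the other 7 members, 9.845, 21.53 and 22.27% for Col4a1 with Col4a2, 4.595, 7.348 and 7.325% for the remaining non-fibrillar genes, and 68.38, 47.55 and 46.94% for the fibrillar genes, since longer genes then weigh more. Depth limits Col14a1 and Col15a1, at 8 counts or fewer per library, and Col18a1, at 27 to 81 counts.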
